A study of Mus musculus with 6 samples.

Results

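Expression of 47 nuclear genes for respiratory complexes II, III, IV and V, and for cytochrome c, was followed in mice with and without ISO. The libraries are labelled left ventricle. The genes were taken by symbol from a table of 21989 gene symbols. They are Sdha to Sdhd, Cyc1, Cycs and every symbol that begins with Uqcr, with Cox followed by a digit from 4 to 8 and a letter, or with Atp5, at a mean of at least 1 FPKM over the 6 libraries. FPKM divides a gene's fragments by its length in kilobases and by the counted fragments of its library, so levels of different genes can be set side by side. The rule matched 49 symbols, and the 47 genes are among 12269 genes of the table at that mean. Cox8c (0.0679 FPKM) and Cox7b2 (0.884 FPKM) were left out by the minimum, and Uqcrc1 (5.29 FPKM) and Cox4i2 (7.88 FPKM) were the lowest of those kept. Complex II had 4 genes, complex III 9, complex IV 16 and complex V 17, and cytochrome c had 1.

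ISO animals were male C57BL/6 mice that received ISO at 10 mg/kg per day under the skin for 3 weeks, and the labels call them the heart failure group. The labels do not spell ISO out, and in mouse models of heart failure it commonly stands for isoproterenol, an agonist of beta-adrenergic receptors. Saline animals were males of the same strain that received an equal volume of normal saline, and the labels call them sham. Each group had 3 polyadenylated RNA libraries, called biological repeats in the labels, and neither age nor a measure of heart function is given in the sources used here. Nothing ties a library to an animal, so a p-value here speaks only of how far these samples scatter, which may be technical.

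The respiratory chain sits in the inner mitochondrial membrane. Complex II passes electrons from succinate to ubiquinone, complex III passes them on to cytochrome c, and complex IV, cytochrome c oxidase, hands them to oxygen. Complexes III and IV pump protons, and complex V, the ATP synthase, uses the proton gradient to make ATP. The beating heart draws most of its ATP from this chain, and cardiomyocytes are densely packed with mitochondria. Complexes III, IV and V also hold subunits encoded by mitochondrial DNA, which are not analysed here. Several complex IV subunits exist as a striated muscle form and a general form made by separate genes.

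Recovered library totals ran from 2776152 reads in saline 3 to 9862363 reads in saline 1. A single gene of the 47 had between 18 and 22336 reads in a library, and 43 had at least 100 reads in every library. Saline 3 stood apart, with a Pearson r of 0.788 to 0.830 to each other library over the genes tested, against at least 0.918 among the other 5. ISO 1 and ISO 2 lay close together: their median absolute log2 difference over the 47 genes was 0.053, and 32 genes were within 0.1. The other within-group pairs had medians of 0.49 to 1.07 and at most 5 such genes. ISO 1 and ISO 2 still differed by 3.18 times the sampling noise over these genes, as the median chi-square, and were counted as separate samples. The ventricular light chain Myl2 varied widely, at 1985, 1962 and 140.4 FPKM in ISO 1 to 3, against 2566, 526 and 9101 FPKM in saline 1 to 3. The atrial light chain Myl7 was at 11550.5, 11487 and 8354 FPKM in ISO 1 to 3, against 16664, 16049 and 7469 FPKM in saline 1 to 3. It was above Myl2 in every library but saline 3, although the labels give left ventricle. The chamber content of the samples was not tested. GENCODE M21 held 46 of the 47 genes by symbol, all but Atp5sl. Exons of 13 of the 46 overlap those of another gene. The strand setting of the counting is not given, so reads of the overlapping genes cannot be told apart. The 13 are Uqcrb, Uqcrc2, Cox4i1, Cox5a, Cox6a2, Cox6c, Atp5a1, Atp5d, Atp5f1, Atp5g2, Atp5j, Atp5l and Atp5o.

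Most of the 47 genes were lower in ISO than in saline. The log2 fold change on the log2(FPKM + 1) scale was below 0 for 44 of them, where 31.9% of all genes tested were below 0. Their median log2 fold change was -0.61, against 0.20 for all genes tested. With median-of-ratios scaling of the libraries, the medians were -0.82 and 0.021, and 46 of the 47 were below 0. No gene of the table passed limma's test at an adjusted p of 0.05 (0 of 12269, 0%), and so 0 of the 47 did, with adjusted p from 0.699 to 0.964. Limma-voom on recovered reads also called 0, and 774 of all genes tested had an unadjusted p under 0.05 in limma. At that unadjusted level 14 of the 47 were lower (1.39% of all genes tested were) and 0 were higher (4.92%). All 3 ISO libraries lay below all 3 saline libraries for 18 of the 47, where 3.72% of all genes tested did so. None of the 47 had ISO wholly above saline, where 12.8% of all genes tested did.

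Individual libraries weighed on these values. Saline 3 was the highest of the 6 libraries for 36 of the 47 genes, and ISO 3 the lowest for 30. Without saline 3 the median log2 fold change was -0.37, with 41 genes below 0 (40.8% of all genes tested) and 19 apart in the lower direction (9.61%). Without ISO 3 it was also -0.37, with 40 genes below 0 (34.5%) and 20 apart (8.08%). With both left out, it was -0.30, and 30 of the 47 genes were below 0, where 44.2% of all genes tested were. Saline 2 was the saline library nearest to ISO, and without it the groups were apart in the lower direction for 36 genes (7.33% of all genes tested). In whole tissue, fewer cells of a type and less RNA per cell cannot be told apart. With quality weights on the libraries, a fit that gave saline 3 a weight of 0.0772, limma called 9 of the 47 lower (2.01% of all genes tested) and 1 higher (4.25%). The 9 were Cox7c, Cox6b1, Cox7a1, Cox8b, Cox7b, Atp5h, Uqcrq, Uqcrb and Sdhb, with adjusted p from 0.0155 to 0.0386, and the 1 was Cox7a2l (adjusted p = 0.0357).

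**Figure D1:**
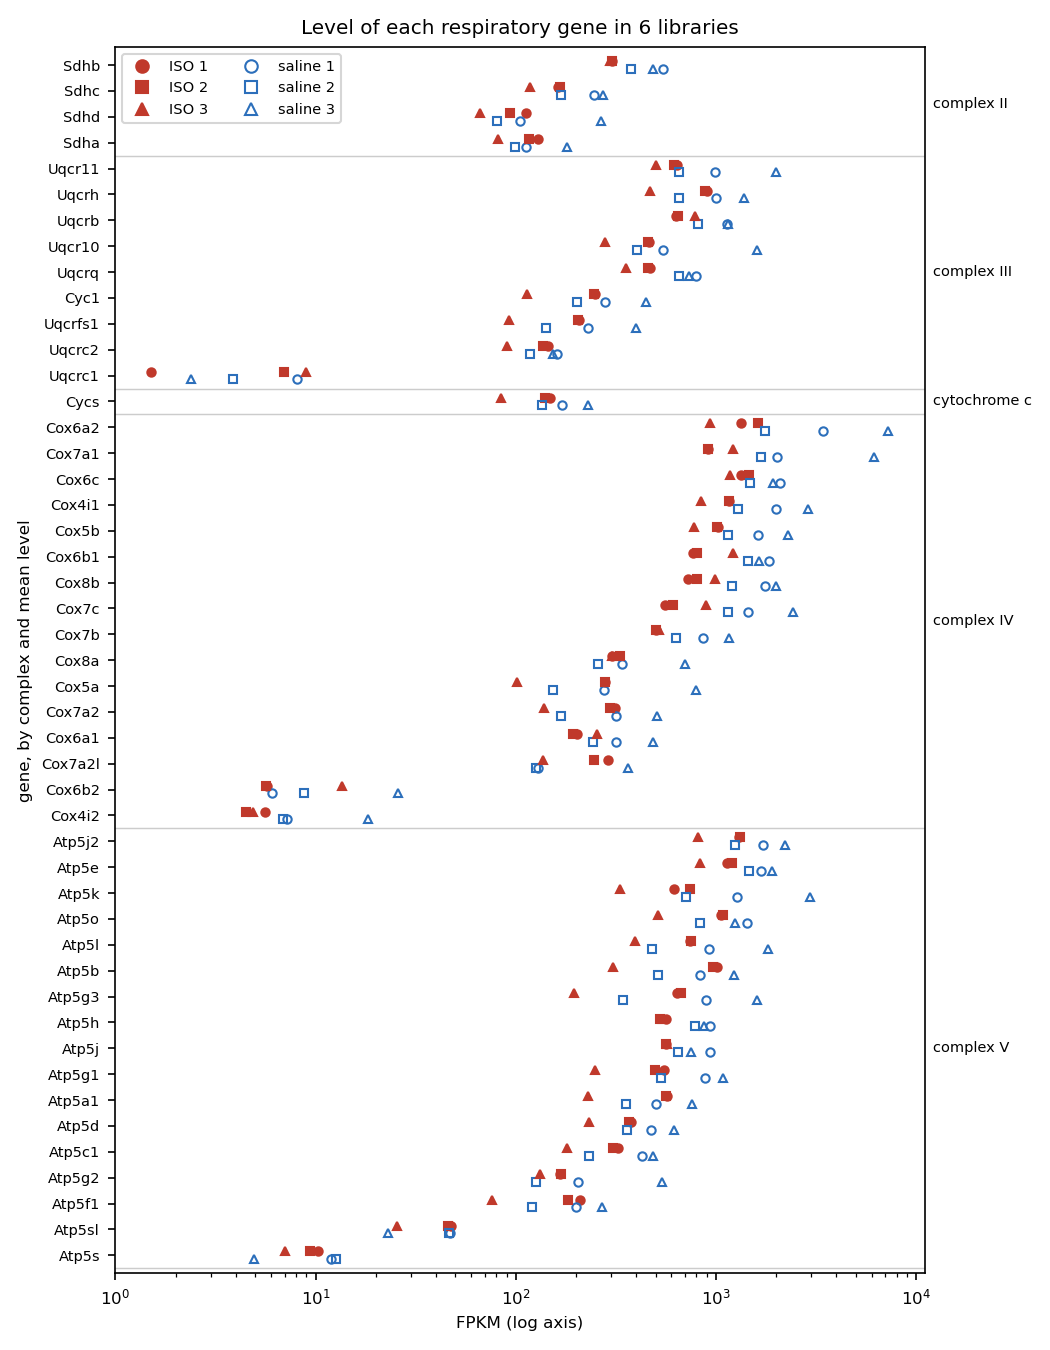
FPKM of each of the 47 genes (log axis) in ISO 1 to 3 (filled red) and saline 1 to 3 (open blue), ordered by complex and mean level. Saline 3 (open triangles) is the rightmost point for 36 genes and ISO 3 (filled triangles) the leftmost for 30, and the groups are apart for 18.

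The 47 genes together made up 5.42, 5.44 and 3.98% of all FPKM in ISO 1 to 3, against 8.06, 5.96 and 9.98% in saline 1 to 3. Every ISO library was below every saline library on this share. The gap was widest for complex IV, whose 16 genes took 2.18, 2.26 and 2.05% in ISO 1 to 3, against 3.90, 2.92 and 5.24% in saline 1 to 3. The 17 genes of complex V took 2.22, 2.2 and 1.21% in ISO, against 2.83, 2.01 and 3.15% in saline, so ISO 1 and ISO 2 were above saline 2. Complex III took 0.831, 0.804 and 0.582% in ISO, against 1.09, 0.834 and 1.34% in saline, and the groups were apart only by the narrow gap between ISO 1 and saline 2. Complex II, the smallest, took 0.158, 0.15 and 0.121% in ISO, against 0.213, 0.166 and 0.207% in saline, with the groups apart. These shares are descriptions, and differences between complexes were not tested.

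**Figure D2:**
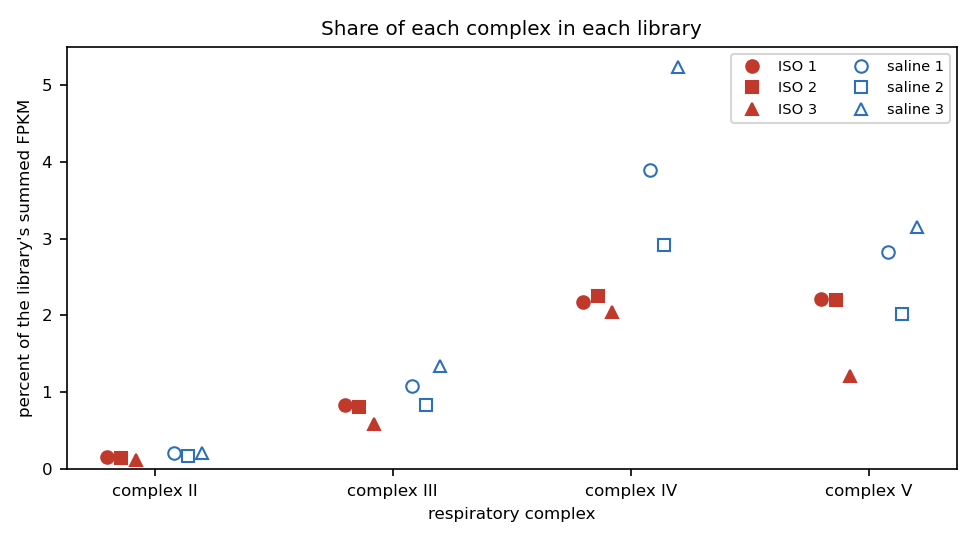
Percent of each library's summed FPKM taken by the genes of each complex, for ISO 1 to 3 (filled red, left) and saline 1 to 3 (open blue, right). Complex IV lies at 2.05 to 2.26% in ISO and 2.92 to 5.24% in saline, and for complex V ISO 1 and ISO 2 lie above saline 2.

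All 4 complex II genes were lower in ISO by mean. Sdhb, the iron-sulfur subunit, gave the clearest separation in this complex (chromosome 4, 140961271 to 140979198). It was at 303, 303 and 296 FPKM in ISO 1 to 3, against 546, 378 and 488 FPKM in saline 1 to 3, so the ISO libraries were nearly equal and all below saline. Its log2 fold change was -0.63 (SE 0.23) with an adjusted p = 0.699 (limma).

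Sdhc, a membrane anchor that holds the heme and the quinone site, was at 162, 167 and 118 FPKM in ISO 1 to 3, against 246, 169 and 273 FPKM in saline 1 to 3. The groups did not overlap, but ISO 2 and saline 2 were nearly equal, and the log2 fold change was -0.61 (SE 0.28). Sdhd, the other anchor, was at 113, 93.5 and 66.4 FPKM in ISO 1 to 3, against 106, 80.9 and 268 FPKM in saline 1 to 3. Saline 3 alone was high, and without it and ISO 3 the log2 fold change of -0.56 became 0.15. Sdha, the flavoprotein that oxidizes succinate, was at 129, 116 and 81.4 FPKM in ISO 1 to 3, against 112, 99.7 and 181 FPKM in saline 1 to 3. The groups overlapped, and its log2 fold change of -0.24 became 0.21 without saline 3 and ISO 3.

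In complex III, 8 of 9 genes were lower in ISO by log2 fold change, with a median of -0.58. Uqcr11 and Uqcr10, small accessory subunits, had the lowest log2 fold changes with all libraries, -0.90 (SE 0.42) and -0.85 (SE 0.52). Without saline 3 they were -0.47 and -0.26, and Uqcrq (-0.76) and Uqcrb (-0.50) were lower. Uqcr11 was at 637, 616 and 502 FPKM in ISO 1 to 3, against 993, 652 and 1991 FPKM in saline 1 to 3. ISO was below saline throughout, though saline 2 was close to ISO 1. Uqcr10 was at 464, 461 and 280.02 FPKM in ISO 1 to 3, against 543, 406 and 1599.7 FPKM in saline 1 to 3, and saline 3 stood far above the other 5 libraries.

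Uqcrq and Uqcrb, both small subunits near the quinone sites, were named after their values were seen. Uqcrq averaged 429 ± 62.0 FPKM in ISO and 727 ± 68.2 FPKM in saline (SD, n = 3 each), and Uqcrb averaged 688 ± 83.9 FPKM in ISO and 1037 ± 189.6 FPKM in saline (SD, n = 3 each). Neither overlapped between groups, and both stayed lower in ISO without saline 3 and ISO 3 (log2 fold changes -0.64 and -0.59).

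Among the electron carriers the groups overlapped. Cyc1, cytochrome c1, was at 248, 245 and 113 FPKM in ISO 1 to 3, against 279.8, 203 and 447 FPKM in saline 1 to 3. Uqcrfs1, the Rieske iron-sulfur protein, was at 207, 205 and 92.4 FPKM in ISO 1 to 3, against 229.6, 141 and 399.7 FPKM in saline 1 to 3. For each of them ISO 1 and ISO 2 lay between saline 2 and saline 1, and ISO 3 was lowest. Cycs, the soluble carrier cytochrome c, was at 148, 141 and 84.6 FPKM in ISO 1 to 3, against 169.9, 135 and 229 FPKM in saline 1 to 3, with the same order of libraries. Cycs had a log2 fold change of -0.52 (SE 0.32), and -0.07 without saline 3 and ISO 3.

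Uqcrc2, a large core protein on the matrix side, was at 146, 137 and 90.4 FPKM in ISO 1 to 3, against 160.4, 117 and 154 FPKM in saline 1 to 3, a log2 fold change of -0.22 (SE 0.27). Its partner in the core, Uqcrc1, was listed far lower, at 1.51, 6.97 and 8.93 FPKM in ISO 1 to 3, against 8.05, 3.88 and 2.39 FPKM in saline 1 to 3. These levels rest on 22 to 263 reads over a gene model of 3312 bases, and no other gene shares its exons in GENCODE M21. Whether reads of Uqcrc1 were lost in the counting, which would make its level too low, was not tested. The ISO and saline values of Uqcrc1 overlapped, and its log2 fold change of 0.14 turned sign under median-of-ratios and quantile scaling.

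Complex IV had the lowest median of the complexes, -0.78, with 15 of 16 genes lower. In 10 of 16 (62.5%) the groups were apart in the lower direction, where 3.72% of all genes tested were. The 2 most abundant genes of complex IV are muscle forms. Cox6a2, the striated muscle form of subunit 6A and the gene with the highest mean of the 47 (chromosome 7, 128205435 to 128206366), was at 1332, 1618 and 932 FPKM in ISO 1 to 3, against 3437, 1768 and 7280.2 FPKM in saline 1 to 3. Every ISO library was below every saline library, with ISO 2 near saline 2, and saline 3 was highest. Its log2 fold change was -1.49 (SE 0.52) with an adjusted p = 0.699 (limma), -0.97 without saline 3 and -1.27 without ISO 3.

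Cox7a1, the muscle form of subunit 7A (chromosome 7, 30184171 to 30186030), was at 909, 913 and 1214 FPKM in ISO 1 to 3, against 2021, 1683 and 6139 FPKM in saline 1 to 3. The groups were well apart, and saline 3 was far above the other saline libraries. Its log2 fold change was -1.46 (SE 0.50), and -0.88 without saline 3. Cox8b, the muscle form of subunit 8 in mice (chromosome 7, 140898942 to 140900446), was at 727, 808 and 994 FPKM in ISO 1 to 3, against 1760.04, 1203 and 2007 FPKM in saline 1 to 3, and all ISO libraries were below all saline ones. For Cox8b the log2 fold change was -0.95 (SE 0.29), and -0.92 without saline 3 and ISO 3.

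The general forms separated less. Cox6a1 was at 201, 194 and 255 FPKM in ISO 1 to 3, against 318, 243 and 483 FPKM in saline 1 to 3, and ISO 3 was above saline 2. Cox7a2 was at 312, 297 and 138 FPKM in ISO 1 to 3, against 317, 169 and 508 FPKM in saline 1 to 3. Here ISO 1 and ISO 2 were nearly level with saline 1, and the log2 fold change of -0.36 (SE 0.49) became 0.39 without saline 3 and ISO 3. Cox8a was at 303, 334 and 302 FPKM in ISO 1 to 3, against 339.5, 257 and 699 FPKM in saline 1 to 3, with the ISO libraries between saline 2 and saline 1.

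The ratio of the muscle form to the general form, taken within a library as a difference of log2(FPKM + 1), hardly depends on the scaling of that library. For Cox6a2 over Cox6a1 it was 2.72, 3.05 and 1.87 in ISO 1 to 3, against 3.43, 2.86 and 3.91 in saline 1 to 3. For Cox7a1 over Cox7a2 it was 1.54, 1.62 and 3.13 in ISO 1 to 3, against 2.67, 3.31 and 3.59 in saline 1 to 3. For Cox8b over Cox8a it was 1.26, 1.27 and 1.71 in ISO 1 to 3, against 2.37, 2.22 and 1.52 in saline 1 to 3. In each pair the ISO mean was below the saline mean and 1 ISO library reached into the saline range. The differences in mean, ISO minus saline, were -0.85, -1.09 and -0.62, and they kept their sign with any 1 library left out. None passed the exact two-sided permutation test (p = 0.2 for each, adjusted p = 0.333 over 5 pairs), and 3 libraries against 3 cannot give a p below 0.1.

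The other 2 pairs have a rare partner. Cox4i2, the oxygen-regulated form known from lung, was at 5.60, 4.49 and 4.85 FPKM in ISO 1 to 3, against 7.18, 6.84 and 18.3 FPKM in saline 1 to 3, and ISO was below saline throughout. Cox4i1, the general form, was at 1166, 1165 and 841 FPKM in ISO 1 to 3, against 2001, 1295 and 2876 FPKM in saline 1 to 3, also with no overlap. Their ratio differed by 0.052 (exact permutation p = 0.9), and its sign turned with 1 library left out. Cox6b2, the testis form, was at 5.71, 5.66 and 13.6 FPKM in ISO 1 to 3, against 6.08, 8.74 and 25.7 FPKM in saline 1 to 3, on 18 to 47 reads in a library. Cox6b1, the general form, was at 765, 808 and 1212 FPKM in ISO 1 to 3, against 1849, 1455 and 1649 FPKM in saline 1 to 3. Its groups did not overlap, and it was lower in ISO by 43.8% of the saline mean. The ratio of this pair differed by 0.36 (exact permutation p = 0.7).

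**Figure D3:**
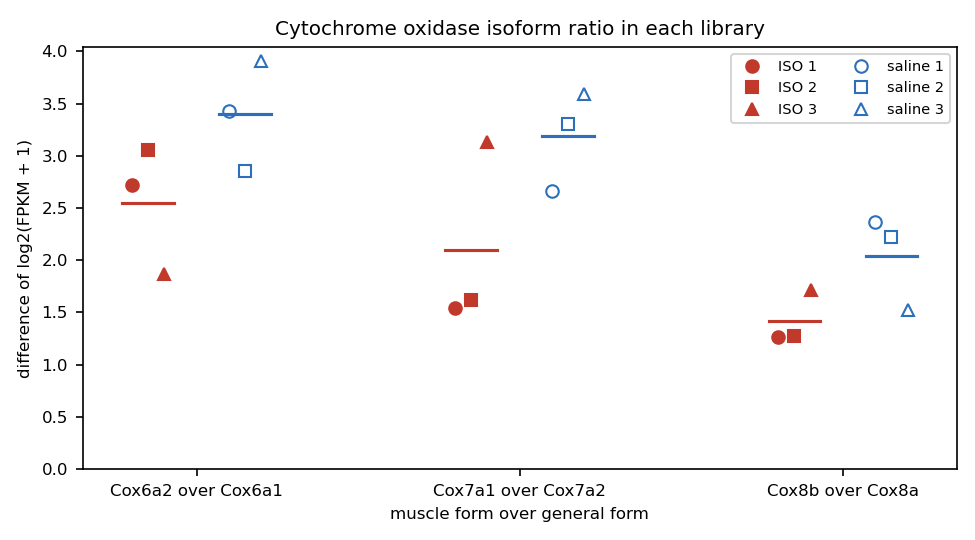
Difference of log2(FPKM + 1) between the muscle form and the general form of 3 cytochrome oxidase subunits in ISO 1 to 3 (filled red, left) and saline 1 to 3 (open blue, right). Short lines are group means, 2.55 against 3.40 for COX6A, 2.1 against 3.19 for COX7A and 1.42 against 2.04 for COX8, and single libraries of the groups overlap in each pair.

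The promoters of Cox7a1 and Cox8b are shown because these muscle forms were apart between the groups, with those of Cox6a1, a general form, and Sdhb, the complex II gene with the clearest separation. Each is the 250 bases before the RefSeq start site (GRCm38.p6), written 5′ to 3′ along the gene. They lie at chr7:30183921-30184170, plus strand (Cox7a1), chr7:140900447-140900696, minus strand (Cox8b), chr5:115348959-115349208, minus strand (Cox6a1) and chr4:140961021-140961270, plus strand (Sdhb). Capitals mark letters that match a searched motif on either strand.
Cox7a1: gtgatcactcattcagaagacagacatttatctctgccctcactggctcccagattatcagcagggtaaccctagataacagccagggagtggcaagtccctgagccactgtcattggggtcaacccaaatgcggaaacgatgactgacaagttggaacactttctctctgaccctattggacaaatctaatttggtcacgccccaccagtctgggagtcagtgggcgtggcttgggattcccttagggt
Cox8b: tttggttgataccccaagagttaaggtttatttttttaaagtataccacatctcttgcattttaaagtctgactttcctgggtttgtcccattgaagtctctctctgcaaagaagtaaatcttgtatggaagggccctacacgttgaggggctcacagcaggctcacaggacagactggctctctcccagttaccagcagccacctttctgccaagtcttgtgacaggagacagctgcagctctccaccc
Cox6a1: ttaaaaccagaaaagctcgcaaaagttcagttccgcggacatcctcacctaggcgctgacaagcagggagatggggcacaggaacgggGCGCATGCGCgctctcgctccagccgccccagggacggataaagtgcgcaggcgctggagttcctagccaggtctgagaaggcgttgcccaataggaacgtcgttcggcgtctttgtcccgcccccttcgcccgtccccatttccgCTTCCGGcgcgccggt
Sdhb: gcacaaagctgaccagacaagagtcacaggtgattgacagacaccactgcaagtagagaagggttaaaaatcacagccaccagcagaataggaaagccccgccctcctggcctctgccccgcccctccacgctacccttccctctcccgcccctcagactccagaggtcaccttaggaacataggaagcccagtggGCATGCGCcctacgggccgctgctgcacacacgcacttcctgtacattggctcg
The motifs were GCATGCGC (core of the NRF1 site), CCGGAAG (core of ETS sites, which GABP binds), AAGATGGC (YY1) and AAGGTCA (an element bound by estrogen-related receptors). NRF1, GABP, YY1 and these receptors are known regulators of respiratory genes. RefSeq windows were found for 34 of the 47 genes, 37 windows in all. The NRF1 core was in 6 of them (16.2%, against 2.26% of 32851 windows of all genes), and the ETS core in 9 (24.3%, against 6.91%). The YY1 core was in 1 (2.70%, against 1.56%) and the receptor element in 2 (5.41%, against 4.08%). Cox6a1 held overlapping NRF1 cores on both strands, which start 162 and 160 bases before the start site, and an ETS core that starts 16 bases before it. Sdhb held an NRF1 core that starts 54 bases before the start site. Cox7a1 and Cox8b held none of these letters in their windows. Cox7a2 and Cox8a, the general forms of the same subunits, held none either, and Cox6a2 had no RefSeq window. The windows shown therefore do not set muscle forms apart from general forms. A match is a description of letters only.

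Further small subunits of complex IV were also lower in ISO. Cox7c, a small general subunit named after its values were seen, was at 560.2, 608 and 889 FPKM in ISO 1 to 3, against 1443, 1154 and 2420.4 FPKM in saline 1 to 3. All ISO libraries were below all saline libraries, and its log2 fold change of -1.24 (SE 0.35) was -1.14 without saline 3 and ISO 3. Cox5b, Cox7b and Cox6c, further nuclear subunits named for their lack of overlap, had log2 fold changes of -0.80, -0.75 and -0.46, each with no overlap.

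Cox5a, a subunit on the matrix side that was also named after its values were seen, was at 279.8, 279.96 and 101 FPKM in ISO 1 to 3, against 277, 153 and 796 FPKM in saline 1 to 3. ISO 1 and ISO 2 were level with saline 1, and the log2 fold change of -0.70 (SE 0.66) became 0.44 without saline 3 and ISO 3. Cox7a2l, counted with complex IV by its symbol, went the other way in part of the libraries. It was at 288, 246 and 137 FPKM in ISO 1 to 3, against 129.99, 127 and 364 FPKM in saline 1 to 3, with ISO 1 and ISO 2 above saline 1 and saline 2 and saline 3 highest. Its log2 fold change was 0.23 (SE 0.48), and 1.05 without saline 3 and ISO 3.

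The ATP synthase genes had a median log2 fold change of -0.57, with 16 of 17 lower. In 3 of 17 (17.6%) the groups were apart in the lower direction, where 3.72% of all genes tested were. Among core subunits of the ATP synthase, alpha and beta of the catalytic head had the log2 fold changes nearest to 0. Atp5b, the catalytic beta subunit, was at 1019, 973 and 305 FPKM in ISO 1 to 3, against 838, 515 and 1234 FPKM in saline 1 to 3. ISO 1 and ISO 2 were above saline 1 and saline 2, and ISO 3 was lowest of all. Its log2 fold change of -0.27 (SE 0.55) became 0.60 without saline 3 and ISO 3. Atp5a1, the alpha subunit that alternates with beta, was at 568, 566 and 230.04 FPKM in ISO 1 to 3, against 503, 355 and 762 FPKM in saline 1 to 3, with the same order. Atp5c1, the gamma subunit that turns in the head, was at 326, 307 and 181 FPKM in ISO 1 to 3, against 428, 232 and 483 FPKM in saline 1 to 3, where only ISO 3 was below all saline libraries.

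Of the peripheral stalk genes, Atp5h and Atp5j were apart between the groups, and Atp5f1 and Atp5o were not. Atp5h and Atp5j, named after their values were seen, averaged 544 ± 19.9 FPKM in ISO and 865 ± 70.7 FPKM in saline (SD, n = 3 each) and 566 ± 5.40 FPKM in ISO and 779.5 ± 148 FPKM in saline (SD, n = 3 each). The groups did not overlap for either, and the log2 fold changes of -0.67 and -0.44 were -0.66 and -0.47 without saline 3 and ISO 3. Atp5f1 and Atp5o, stalk subunits b and OSCP, had log2 fold changes of -0.39 and -0.44, which were 0.33 and -0.027 without saline 3 and ISO 3. Atp5e, the epsilon subunit of the rotating stalk, also named for its lack of overlap, was the third gene with no overlap, at 1131, 1205 and 832 FPKM in ISO 1 to 3, against 1691, 1468 and 1912 FPKM in saline 1 to 3.

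Atp5k, the membrane subunit e that takes part in pairing of the enzyme, had the lowest log2 fold change of complex V with all libraries, -1.38 (SE 0.56). It was -0.83 without saline 3 and -0.49 without saline 3 and ISO 3, when Atp5h was lower. Atp5k was at 619.6, 741 and 331 FPKM in ISO 1 to 3, against 1274, 710.2 and 2961 FPKM in saline 1 to 3. Saline 2 was below ISO 2, so the groups overlapped, and saline 3 was highest. Atp5g1, Atp5g2 and Atp5g3 encode the same mature c subunit of the proton-driven ring. Atp5g1 was at 553, 498 and 249 FPKM in ISO 1 to 3, against 884, 535 and 1091 FPKM in saline 1 to 3, and only ISO 1 exceeded a saline library. Atp5g3 and Atp5g2 had log2 fold changes of -0.85 and -0.64, which became 0.24 and 0.053 without saline 3 and ISO 3.

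A pair of genes that carry Atp5 symbols are not core subunits and had the highest log2 fold changes of this group. Atp5s, coupling factor B, was at 10.3, 9.41 and 7.04 FPKM in ISO 1 to 3, against 11.9, 12.7 and 4.93 FPKM in saline 1 to 3. Atp5sl, a related gene known for a part in complex I assembly, was at 47.4, 45.8 and 25.6 FPKM in ISO 1 to 3, against 47.2, 46.5 and 22.9 FPKM in saline 1 to 3. Saline 3 was the lowest library for both, unlike for most of the 47, and their log2 fold changes were -0.051 (SE 0.37) and 0.045 (SE 0.38).

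Set side by side, the complexes parted when the extreme libraries were left out, a choice made after seeing the data. Without saline 3 and ISO 3, median log2 fold changes were -0.076 for complex II, -0.022 for complex III, -0.45 for complex IV and -0.027 for complex V, against 0.043 for all genes tested. In complex IV, 12 of 16 genes were still lower, against 10 of 17 in complex V. The groups were then apart in the lower direction for 12 of 16 complex IV genes and 4 of 17 complex V genes, where 20.9% of all genes tested were with 2 libraries a group. They were apart in the higher direction for 5 of the 47, and the share of all genes was not counted in that direction. Against the mean of all saline libraries, with saline 3 included again, complex IV had medians of -0.74, -0.77 and -0.78 in ISO 1 to 3. Complex V had -0.32, -0.32 and -1.04, so that ISO 3 alone was far below.

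**Figure D4:**
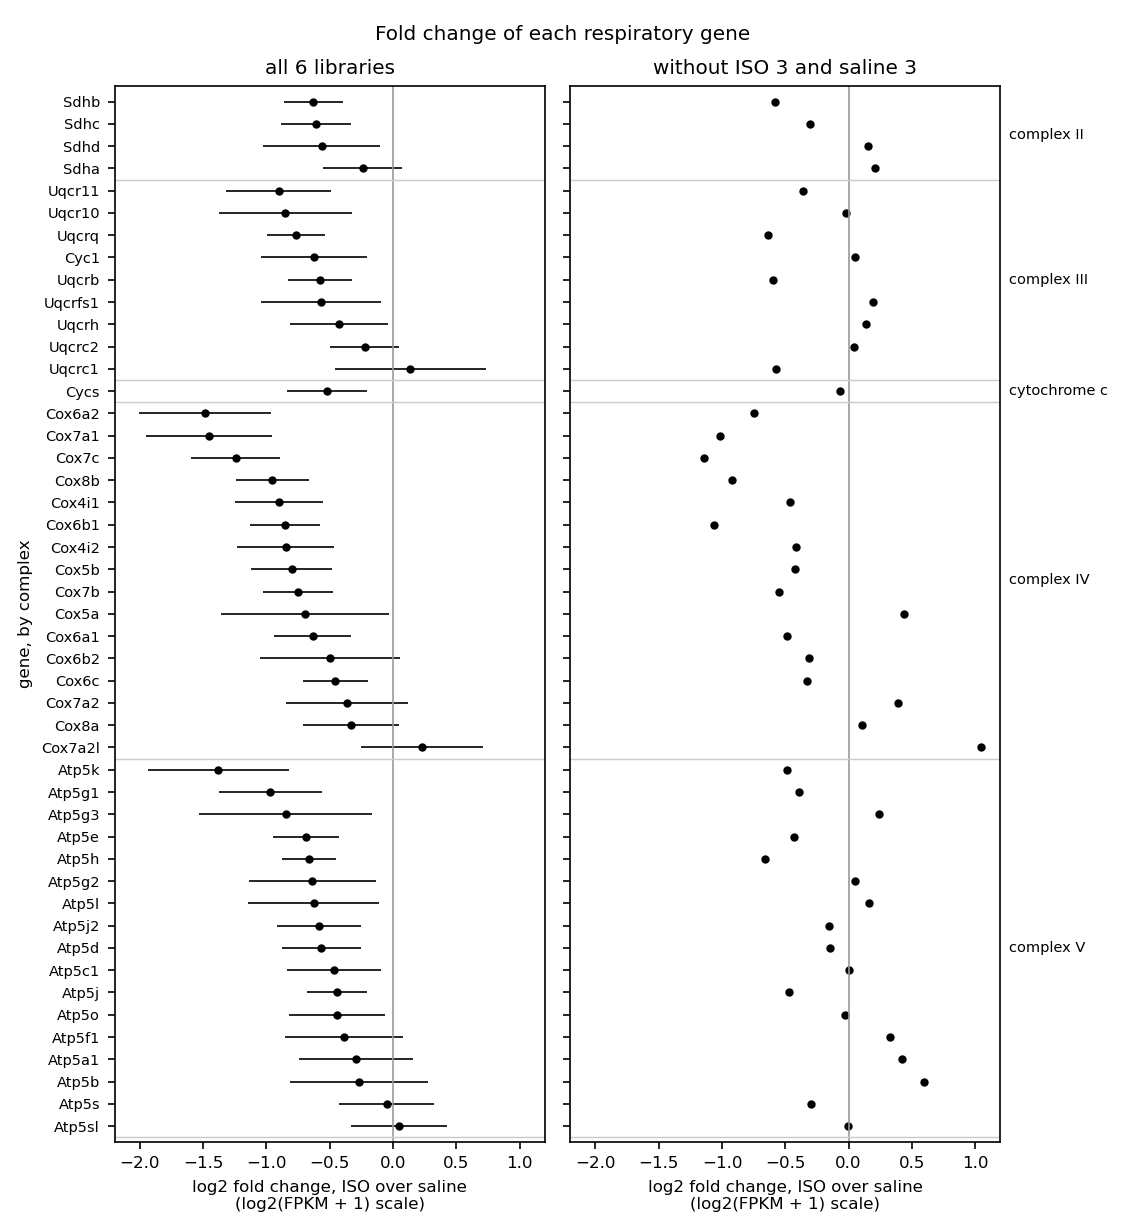
Log2 fold change, ISO over saline, of each of the 47 genes with all 6 libraries (left, bars are SE) and without ISO 3 and saline 3 (right, 2 libraries a group, no bars). With all libraries 44 genes lie below 0, and without ISO 3 and saline 3 30 do, 12 of 16 in complex IV and 10 of 17 in complex V.

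Of the genes that build or serve these complexes, 0 were called. Of 7 complex III assembly genes, 6 were lower, with a median log2 fold change of -0.23. Uqcc2, which helps cytochrome b into the complex, was at 109, 113 and 124 FPKM in ISO 1 to 3, against 175, 171 and 345 FPKM in saline 1 to 3, and the groups did not overlap. Of 23 further genes for complex IV assembly, copper and heme delivery, 15 were lower (median -0.26). Higd1a, a small inner membrane protein that binds complex IV, was at 14.3, 20.3 and 19.6 FPKM in ISO 1 to 3, against 37.3, 20.1 and 64.0 FPKM in saline 1 to 3. Cox14, which acts on translation of the core subunit, was at 71.2, 62.0 and 70.2 FPKM in ISO 1 to 3, against 105, 72.6 and 205 FPKM in saline 1 to 3, and its groups did not overlap. Pet117, also on that list, was at 0 in every library. Of 4 complex II assembly genes 3 were higher (median 0.10). Sdhaf3, which helps Sdhb mature with its iron-sulfur clusters, was at 11.1, 9.17 and 9.39 FPKM in ISO 1 to 3, against 5.90, 5.19 and 2.62 FPKM in saline 1 to 3, above saline in every ISO library while Sdhb itself was below. Of 4 genes for ATP synthase assembly and its inhibitor, 2 were lower and 2 higher, with Atpaf2, a chaperone of the alpha subunit, at 13.4, 11.8 and 16.8 FPKM in ISO 1 to 3, against 9.19, 13.0 and 5.12 FPKM in saline 1 to 3.

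Exchange of ATP, ADP and phosphate across the membrane had 6 of 8 genes lower, with a median of -0.31. Slc25a4, the muscle ADP/ATP carrier, was at 2774, 2679 and 1584 FPKM in ISO 1 to 3, against 4394, 2853 and 4699 FPKM in saline 1 to 3. ISO 1 and ISO 2 were just under saline 2, and no ISO library reached the saline range. Ubiquinone synthesis had 10 of 13 lower (median -0.11). Coq4, needed for ubiquinone synthesis, was at 2.95, 4.05 and 3.95 FPKM in ISO 1 to 3, against 1.69, 2.81 and 2.16 FPKM in saline 1 to 3, and every ISO library was above every saline library. Coq7, a hydroxylase of that pathway, was at 39.0, 30.6 and 18.6 FPKM in ISO 1 to 3, against 49.5, 29.9 and 104 FPKM in saline 1 to 3, with the groups overlapping. Of 16 regulators of mitochondrial biogenesis, 11 were lower (median -0.093). Ppargc1b, a coactivator of respiratory genes, was at 2.19, 2.08 and 3.31 FPKM in ISO 1 to 3, against 3.83, 4.50 and 19.3 FPKM in saline 1 to 3, with no overlap and saline 3 far above the rest. Perm1, a muscle regulator downstream of such coactivators, was at 21.4, 21 and 6.34 FPKM in ISO 1 to 3, against 26.0, 18.3 and 37.9 FPKM in saline 1 to 3, where ISO 1 and ISO 2 exceeded saline 2. Of 9 cristae genes, 4 were lower and 5 higher (median 0.032). Chchd6, a part of the cristae junction complex, was at 8.03, 4.69 and 4.16 FPKM in ISO 1 to 3, against 3.04, 5.16 and 0.00 FPKM in saline 1 to 3, where saline 2 was above ISO 2 and ISO 3. Chchd3, of the same complex, was at 152, 135 and 80.5 FPKM in ISO 1 to 3, against 151, 139 and 198 FPKM in saline 1 to 3.

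Markers of cardiomyocytes were lower together with the respiratory genes. All 15 of the cardiomyocyte list were lower in ISO (median -0.77), and none was at 0 in a library. The groups were apart in the lower direction for 6 of the 15, where 3.72% of all genes tested were, and overlapped for the rest. The list median was -0.74 without saline 3 and -0.49 without ISO 3. The sum of the 15 markers was 25709, 24838 and 15635 FPKM in ISO 1 to 3, against 37839, 36117 and 54503 FPKM in saline 1 to 3, with no overlap. The mean log2 level of the 47 genes minus that of the 15 markers was -1.19, -1.06 and -0.64 in ISO 1 to 3, against -1.14, -1.41 and -0.80 in saline 1 to 3. Relative to these markers the groups overlapped, and the ISO mean was higher than the saline mean by 0.15. For complex IV alone the same difference was 0.01. The sum of ventricular markers was 2951, 2869.7 and 381 FPKM in ISO 1 to 3, against 3732, 1092 and 13854 FPKM in saline 1 to 3, lowest in ISO 3 and highest in saline 3, the libraries at the ends for most of the 47. Atrial markers summed to 18849, 18983 and 15782 FPKM in ISO 1 to 3, against 27411, 24848 and 10890 FPKM in saline 1 to 3, lowest in saline 3. The part of these markers in the result was not tested.

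Markers of other cell types were looked at as well, and their part in the result was not tested. Erythroid markers summed to 14111, 14598 and 29639 FPKM in ISO 1 to 3, against 6713, 3776 and 3257 FPKM in saline 1 to 3, with all 9 tested higher. Macrophage markers had 11 of 11 higher and summed to 1052, 2005 and 1832 FPKM in ISO 1 to 3, against 497, 676 and 934 FPKM in saline 1 to 3, and fibroblast markers had 10 of 11 higher and summed to 1880.1, 1901 and 2192 FPKM in ISO 1 to 3, against 1295, 1146 and 969 FPKM in saline 1 to 3. The groups were apart on each of these 3 sums. Endothelial markers had 9 of 10 higher, smooth muscle and pericyte markers 6 of 8 and atrial markers 7 of 10, with sums that overlapped between the groups. Of all 12269 genes tested, 8351 were higher in ISO, so 6 of 8 and 7 of 10 are near the share of all genes. Without saline 3 the median log2 fold change of the endothelial list was 0.11, against 0.58 with all libraries, and that of the atrial list was -0.37, against 0.12. With median-of-ratios scaling the atrial and the smooth muscle and pericyte medians were -0.09 and -0.15. No marker of these lists was at 0 in every library. Brown fat also expresses Cox7a1 and Cox8b, and its uncoupling protein Ucp1 was at 8.82, 7.79 and 71.7 FPKM in ISO 1 to 3, against 5.43, 108 and 172 FPKM in saline 1 to 3. Ucp1 was therefore high in saline 2, saline 3 and ISO 3, and low in the other 3 libraries. The adipocyte list had 5 of 7 tested genes lower and summed to 231, 228 and 1672 FPKM in ISO 1 to 3, against 539, 589.7 and 395 FPKM in saline 1 to 3. Skeletal muscle markers had 5 of 8 tested lower, and the fast myosin Myh4 was at 0 in 4 libraries. Acta1, skeletal alpha actin, was at 296 FPKM in saline 3 and at most 23.8 FPKM in the other libraries. Actn3 was at 4.22, 4.44 and 3.58 FPKM in ISO 1 to 3, against 2.70, 1.98 and 0.125 FPKM in saline 1 to 3. For Actn3 every ISO library was above every saline library, and saline 3 was lowest. The median of the skeletal list was -0.45, and 0.13 without saline 3.

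Fold changes also differed with gene length. The gene models of the 47 had a median of 772 bases, recovered from the FPKM steps, against 3414 bases for all genes tested. Other genes under 1500 bases had a median log2 fold change of -0.036, against 0.23 for longer ones. Without saline 3 these medians were 0.036 and 0.068. Among the 47, the 34 under 1500 bases had a median of -0.64 and the 13 longer ones -0.29. Across the 47, Spearman's rho between length and log2 fold change was 0.55, and between mean FPKM and log2 fold change -0.58. Both describe genes of the same libraries. The part of length was not tested.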

How the data were processed

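Polyadenylated RNA was sequenced from tissue labelled left ventricle, 3 libraries per group. The authors deposited FPKM per gene symbol. The submitters' processing notes name CASAVA 1.8, fastp 0.20.0, HISAT2 2.1.0, Cufflinks 2.2.1, HTSeq 0.7.2, DESeq and the build GRCm38, without roles. The annotation release, strand setting and handling of reads with several matches are not given in the sources used here. Respiratory genes have many processed pseudogenes, and 13 of the 46 genes found in GENCODE M21 have exons that overlap another gene. These values are uncertain to that extent. FPKM is relative: if abundant RNAs take more of a library, the others appear lower.

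Whole reads were recovered from the FPKM steps for 100% of 16816 genes above 0 in at least 2 libraries, to within 0.0001 of a whole number. Log2(FPKM + 1) of the genes at a mean of at least 1 FPKM entered limma 3.58.1 (R 4.3.3) with a mean-variance trend and group as the only term. P-values were adjusted over all of them by Benjamini-Hochberg, and 0.05 was the threshold. The main fit and the recovery were also run on simulated data. In the simulation of the fit, noise was drawn separately for each gene, without a shift of a whole library. It does not show how often the fit would call changes of the size seen in the respiratory genes. The pseudocount understates fold changes of low genes. Isoform ratios used exact permutation (scipy 1.17.1, Python 3.11.15). Coordinates are RefSeq's on GRCm38.p6.

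The 47 genes, the lists and the tests were chosen with earlier results of these data known. Genes were named by role (all of complex II, cytochromes, the Rieske protein, ATP synthase alpha, beta and gamma, isoform pairs), by the 2 lowest and 2 highest log2 fold changes of each complex, and in the other lists among the 3 smallest p. Atp5f1, Atp5o, Atp5g2, Atp5g3, Pet117, Myl2, Myl7, Myh4 and Acta1 were named outside this rule. Other genes named outside it are said to be. Same-numbered libraries were treated as unpaired, and the correlations of their deviations, given below, cannot exclude a shared batch. Alternatives were another pseudocount, filters, scalings, quality weights, a block for the replicate number, leaving out libraries 1 at a time, and limma-voom on recovered reads. Leaving out saline 3 and ISO 3 together was chosen after seeing the data.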

Additional observations from a re-analysis of the deposited data

How the results depend on the processing

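The median log2 fold change of the 47 genes stayed below 0 in all 16 alternatives tried, from -0.80 to -0.37 with 1 library left out. Limma called 768 genes with quality weights, 10 of them among the 47, and 0 to 16 with 1 library left out, the 16 without ISO 1. The count of genes with no overlap ran from 18 to 36 with 1 library left out, where 4.47 to 9.61% of all genes tested had none. A replicate block moved no call (0 genes, 0 of the 47, median -0.61). In this balanced design the block cannot change a log2 fold change, and the other filters leave those of the 47 as they are. These alternatives therefore could not turn a direction. Deviations of same-numbered libraries from their group means correlated at 0.013, -0.15 and -0.025. With 3 libraries a group, these values cannot exclude a shared batch. The direction held in every alternative for 26 genes, 11 of them in complex IV, and turned in at least 1 for 21. With 1 library left out, log2 fold changes crossed 0 for Atp5a1 (-0.56 to 0.14), Atp5b (-0.60 to 0.30), Atp5f1 (-0.70 to 0.065), Atp5s (-0.44 to 0.17), Atp5sl (-0.29 to 0.33), Cox6b2 (-0.90 to 0.062), Cox7a2 (-0.78 to 0.015), Cox7a2l (-0.027 to 0.73), Cox8a (-0.64 to 0.080), Sdha (-0.41 to 0.016) and Uqcrc1 (-0.25 to 0.74). So did the ratios Cox4i2 over Cox4i1 (-0.16 to 0.20, and -0.059 with no pseudocount) and Cox6b2 over Cox6b1 (-0.13 to 0.91). Without saline 3 and ISO 3, a choice made after seeing the data, the sign turned for Atp5a1 (0.42), Atp5b (0.60), Atp5c1 (0.0036), Atp5f1 (0.33), Atp5g2 (0.053), Atp5g3 (0.24), Atp5l (0.16), Atp5sl (-0.0084), Cox5a (0.44), Cox7a2 (0.39), Cox8a (0.10), Cyc1 (0.048), Sdha (0.21), Sdhd (0.15), Uqcrc1 (-0.57), Uqcrc2 (0.043), Uqcrfs1 (0.19) and Uqcrh (0.14). With quality weights it turned for Atp5a1 (0.21), Atp5b (0.29), Atp5f1 (0.0087), Atp5sl (-0.057), Cox5a (0.11), Cox7a2 (0.066), Cox8a (0.016), Sdha (0.083) and Uqcrc1 (-0.28). Median-of-ratios scaling turned Atp5sl (-0.16) and Uqcrc1 (-0.027), quantile normalization turned Atp5sl (-0.085) and Uqcrc1 (-0.083), scaling to a common sum turned Atp5s (0.050), and limma-voom turned Uqcrc1 (-0.27). The causes were not tested. Depth limits the 4 genes with under 100 reads in some library: Uqcrc1, Cox6b2, Cox4i2 and Atp5s.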
